A study of Mus musculus with 6 samples.

Results

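Genes of the insulin-like growth factor (IGF) system were compared between fetal and adult mouse mammary cells. The set was chosen by name and holds 10 genes: the ligands Igf1 and Igf2, the noncoding RNA H19, the receptors Igf1r and Igf2r, and the binding proteins Igfbp2, Igfbp3, Igfbp4, Igfbp5 and Igfbp6. They were measured by 15 of the 55681 probes on the array, and 20661 genes had a probe in all. The RNA came from freshly sorted cells of female C57Bl6J mice, with 3 biological replicates of each population and 1 one-color Agilent SurePrint G3 Mouse GE array per replicate. Fetal cells (CD31−CD45−Ter119−EpCAM++CD49f+) were taken at E18.5, just before birth, and adult basal cells (CD31−CD45−Ter119−BP-1−EpCAM+CD49f+) at 8–12 wk. The labels name no transgene and no treatment for either population. The gates were not the same: the adult cells were also selected against BP-1 and had less EpCAM on their surface, and the adult glands were digested overnight, the fetal glands for a short time. Age, gate and digestion cannot be told apart in this design.

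IGF1 and IGF2 are secreted growth factors that signal through the tyrosine kinase receptor encoded by Igf1r. The product of Igf2r does not transmit this signal but takes IGF2 into the cell for degradation, and the binding proteins hold both ligands outside the cell and set how much of them reaches the receptor. Igf2 is expressed from the paternal and H19 and Igf2r mostly from the maternal chromosome in mice. In the mammary gland IGF1, much of it made in the stroma under growth hormone, is known for its part in ductal growth, and IGFBP5 for its increase during involution.

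Igf2 and H19 lie close together on chromosome 7, and each transcript contains a microRNA hairpin. Only 1 gene of the RefSeq table, the long noncoding RNA Gm33148, lies between them. The mature sequences of these microRNAs, from RefSeq on GRCm38.p6, are given to show which small RNAs the transcripts with the higher fetal signal could carry. No probe on the array matched either microRNA gene, so their own levels were not analysed here. Capitals mark the seed, bases 2 to 8 from the 5′ end. The 4 seeds all differ.

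miR-675-5p: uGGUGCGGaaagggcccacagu
miR-675-3p: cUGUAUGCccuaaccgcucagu
miR-483-5p: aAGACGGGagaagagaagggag
miR-483-3p: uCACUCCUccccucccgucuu

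In the fetal cells H19, Igf2 and Igf2r were higher, whereas Igf1r and Igfbp6 were higher in the adult basal cells. Values below are log2 quantile normalized signals, always for replicates 1, 2 and 3, and differences are fetal minus adult basal on that log2 scale, from limma's test over 20450 probes that passed a filter on low signal. Brightness differs between probes for reasons other than transcript number, so levels are compared between populations and not between genes. A probe was called when its Holm-adjusted p was at most 0.05 and the populations differed by at least 1 on the log2 scale. Of the 15 probes 14 passed the filter, and 5 of those (35.7%) were called, 3 higher and 2 lower in fetal cells. The count was 2 without fetal replicate 1, fetal replicate 2 or basal replicate 3, and 3 without fetal replicate 3 or basal replicate 1. Of all tested probes 11.1% were called, 5.92% higher and 5.18% lower. The median difference was −0.67 over the 14 probes and −0.03 over all tested probes. For 11 of the 14 the fetal and basal arrays did not overlap, as for 69% of all tested probes. The smallest p of an exact permutation test between 3 and 3 arrays is 0.10, so these calls use limma's estimate of variance across probes.

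**Figure D1:**
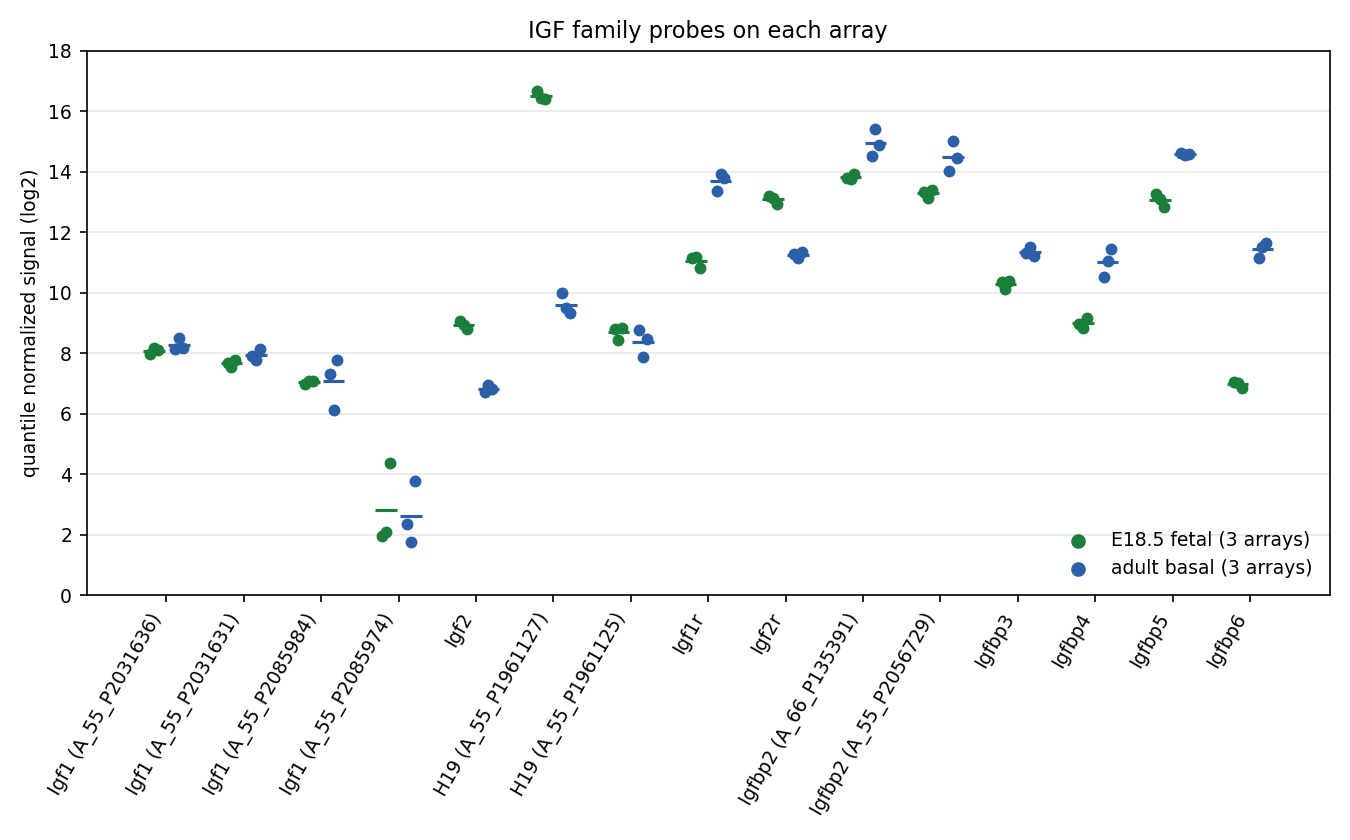
Quantile normalized signal (log2, vertical axis) of the 15 probes of the IGF genes on 3 E18.5 fetal (green) and 3 adult basal (blue) arrays, with points for arrays and short lines for the means. Heights are comparable within a probe and not between probes. The H19 probe A_55_P1961127 sits above 16 on every fetal array and below 10 on every basal array, and the lowest of the Igf1 probes, A_55_P2085974, did not pass the low-signal filter.

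The ligand Igf2 read 9.08, 8.93 and 8.80 in fetal and 6.71, 6.94 and 6.83 in basal cells. Every fetal array was above every basal array, and the probe was well above background on all 6. The fetal mean was 8.94 ± 0.14 and the basal mean 6.83 ± 0.11 (SD, n = 3 each), a difference of 2.11 (SE 0.12, 95% interval 1.84 to 2.39) or 4.33-fold (Holm-adjusted p = 0.0061). The difference was 2.31 within one of the 2 slides and 1.93 within the other. The adjusted p rose above the threshold when fetal replicate 1 (0.082), fetal replicate 2 (0.12), basal replicate 1 (0.059) or basal replicate 3 (0.071) was left out, with differences of 2.04 to 2.12.

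Igf1, the other ligand, was not called by any of its 3 tested probes. The brightest, A_55_P2031636, read 7.99, 8.16 and 8.10 in fetal and 8.13, 8.52 and 8.18 in basal cells, and these ranges overlapped. Its difference was −0.19 (95% interval −0.50 to 0.12, Holm-adjusted p = 1). Probe A_55_P2031631 differed by −0.27 (95% interval −0.58 to 0.03) without overlap between populations. Probe A_55_P2085984 differed by −0.02 with a wide interval, −0.92 to 0.87, because basal replicate 2 was at 6.12 and the other basal arrays at 7.32 and 7.77. Within the 2 slides its difference was −0.56 and 0.96. The 4th probe, A_55_P2085974, was well above background on 1 fetal array only. A change of 2-fold lay outside the intervals of all 3 tested probes.

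H19, which does not code for a protein, was measured by 2 probes that gave different answers. Probe A_55_P1961127 read 16.66, 16.45 and 16.41 in fetal and 9.98, 9.51 and 9.34 in basal cells, so the populations were far apart. The difference was 6.89 (SE 0.18, 95% interval 6.47 to 7.31) or 119-fold (Holm-adjusted p = 2.7e-05). It was 7.0 and 6.92 within the 2 slides and was called under every alternative with a test, 19 in all. Probe A_55_P1961125, of the same accession, read 8.79, 8.45 and 8.84 in fetal and 8.75, 7.87 and 8.47 in basal cells. These ranges overlapped, and the difference was 0.33 (95% interval −0.22 to 0.88, Holm-adjusted p = 1). The mean of both probes differed by 3.61 and was called. The scanner files name probes by accession only, and the accession of these probes was tied to H19 through a list of called probes in the study's supplement and not through the RefSeq table. A further RNA of this locus, Igf2os, which overlaps Igf2 on the opposite strand, was added after its values were seen: it read 7.24, 7.06 and 6.98 in fetal and 6.29, 6.86 and 6.47 in basal cells, a difference of 0.56 that was not called (Holm-adjusted p = 1).

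The receptors went in opposite directions. Igf1r, the signaling receptor, read 11.14, 11.17 and 10.81 in fetal and 13.36, 13.93 and 13.80 in basal cells. Every basal array was higher than every fetal array by at least 2 log2 units. The difference was −2.65 (SE 0.18, 95% interval −3.07 to −2.23), a 6.28-fold higher basal signal (Holm-adjusted p = 0.023). It was −2.44 and −2.93 within the 2 slides. Slide as a block ended the call (adjusted p = 0.11), as did leaving out fetal replicate 1 (0.29), 2 (0.22) or 3 (0.17) or basal replicate 2 (0.056) or 3 (0.22), with differences of −2.72 to −2.53.

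Igf2r, the clearance receptor, read 13.19, 13.13 and 12.93 in fetal and 11.28, 11.15 and 11.35 in basal cells. Here the fetal arrays were all higher, and arrays of each population lay close together. The difference was 1.82 (SE 0.11, 95% interval 1.55 to 2.09) or 3.54-fold (Holm-adjusted p = 0.014), and it was 1.87 and 1.88 within the 2 slides. The call was lost without fetal replicate 1 (adjusted p = 0.21), 2 (0.24) or 3 (0.076) and without basal replicate 1 (0.15) or 3 (0.094), with differences of 1.77 to 1.90. Igf1r and Igf2r were each measured by a single probe.

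All of the 5 binding proteins had a lower mean in fetal than in basal cells, and none of their 6 probes overlapped between populations, as for 69% of all tested probes, but only Igfbp6 was called. The product of Igfbp6 binds IGF2 with preference over IGF1. Its probe read 7.05, 7.01 and 6.86 in fetal and 11.16, 11.51 and 11.63 in basal cells. The difference was −4.46 (SE 0.14, 95% interval −4.80 to −4.12), a 22-fold higher basal signal (Holm-adjusted p = 0.00013). It was −4.35 and −4.57 within the 2 slides, and all 18 alternatives with a test kept the call.

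The other binding proteins passed the limits with Benjamini-Hochberg adjustment, which called 30% of all tested probes, 16% higher and 14% lower in fetal cells, and 10 of the 14 probes described here. Igfbp5, whose product also binds extracellular matrix, read 13.28, 13.11 and 12.84 in fetal and 14.61, 14.55 and 14.58 in basal cells. Its difference was −1.50 (SE 0.13, Holm-adjusted p = 0.12 and Benjamini-Hochberg-adjusted p = 4.9e-05), and it was called by Holm's method with a trend and robust estimation of variance (adjusted p = 0.0090). Igfbp4, an inhibitor of IGF action that the protease encoded by Pappa cleaves, read 8.97, 8.83 and 9.15 in fetal and 10.53, 11.06 and 11.44 in basal cells. The basal arrays spread more widely (SD 0.46 against 0.16, n = 3 each), and the difference was −2.03 (SE 0.23, Holm-adjusted p = 0.60 and Benjamini-Hochberg-adjusted p = 0.00017).

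Igfbp3, the main carrier of IGFs in serum, read 10.35, 10.13 and 10.39 in fetal and 11.33, 11.52 and 11.22 in basal cells, a difference of −1.06 (SE 0.13, Holm-adjusted p = 0.86). Igfbp2, which carries IGFs in serum and tissue, was measured by 2 probes in the same direction. Probe A_66_P135391 read 13.80, 13.78 and 13.91 in fetal and 14.51, 15.40 and 14.90 in basal cells, and probe A_55_P2056729 read 13.34, 13.14 and 13.38 against 14.03, 15.01 and 14.45. Basal replicate 2 was the highest and replicate 1 the lowest by both probes. Their differences were −1.11 (SE 0.21) and −1.21 (SE 0.24), with Holm-adjusted p values of 1 and 1 and Benjamini-Hochberg-adjusted p of 0.0030 and 0.0032. Without basal replicate 2 they were −0.87 and −0.95, short of the limit of 1. Igfbp3 was at −0.98 without basal replicate 2 or without fetal replicate 2. Within the 2 slides the Igfbp2 probes differed by −0.90 and −1.56 and by −0.90 and −1.75, and Igfbp3 by −0.92 and −1.26. Igfbp2 and Igfbp5 are adjacent genes on chromosome 1, with 0 genes between them in the RefSeq table.

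**Figure D2:**
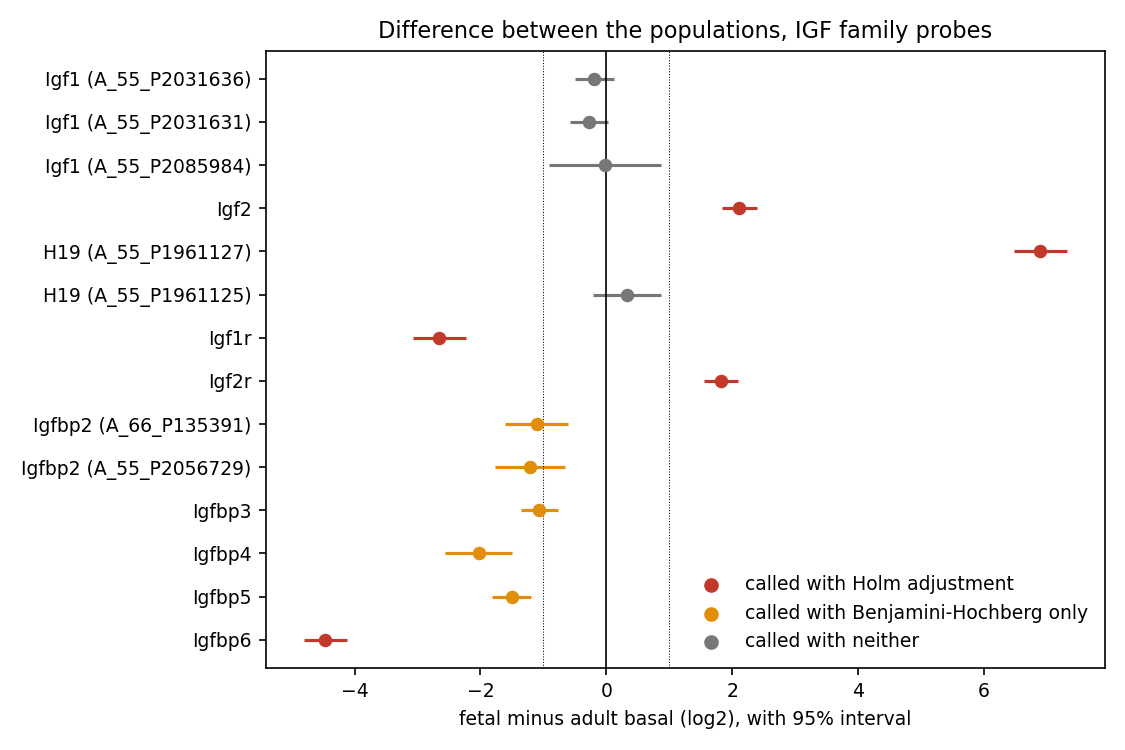
Difference between fetal and adult basal cells (log2, horizontal axis) for the 14 tested probes, with 95% intervals from limma and dotted lines at 1 and −1. Red probes were called with Holm adjustment (5), orange ones with Benjamini-Hochberg adjustment only (5), and gray ones with neither (4); the 6 probes of binding proteins all lie below 0.

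The sequences upstream of the called genes were looked at for a pair of short motifs because these genes differed between populations in both directions. Shown are the 250 bases before the start of Igf2 (chr7:142657497-142657746, − strand), Igf2r (chr17:12769707-12769956, − strand), Igf1r (chr7:67952007-67952256, + strand) and Igfbp6 (chr15:102143936-102144185, + strand), from RefSeq on GRCm38.p6, each 5′ to 3′ on the strand of its gene. Capitals mark GGGCGG, the core of a GC box, and TATAAA, the core of a TATA box, on either strand. Igf2 has 4 starts in this table, with 0, 0, 1 and 2 GGGCGG, and the one with the most is printed, so its matches were fixed by that choice. H19 is not in the table.

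Igf2: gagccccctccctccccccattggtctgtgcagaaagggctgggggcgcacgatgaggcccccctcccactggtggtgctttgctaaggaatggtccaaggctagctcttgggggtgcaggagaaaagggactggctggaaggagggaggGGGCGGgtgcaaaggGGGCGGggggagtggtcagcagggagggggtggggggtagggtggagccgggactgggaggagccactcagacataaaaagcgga
Igf2r: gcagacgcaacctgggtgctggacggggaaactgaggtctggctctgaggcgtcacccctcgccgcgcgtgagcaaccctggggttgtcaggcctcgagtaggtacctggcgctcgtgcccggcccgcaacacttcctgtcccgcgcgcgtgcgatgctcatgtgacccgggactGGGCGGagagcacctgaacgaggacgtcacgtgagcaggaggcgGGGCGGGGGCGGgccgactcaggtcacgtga
Igf1r: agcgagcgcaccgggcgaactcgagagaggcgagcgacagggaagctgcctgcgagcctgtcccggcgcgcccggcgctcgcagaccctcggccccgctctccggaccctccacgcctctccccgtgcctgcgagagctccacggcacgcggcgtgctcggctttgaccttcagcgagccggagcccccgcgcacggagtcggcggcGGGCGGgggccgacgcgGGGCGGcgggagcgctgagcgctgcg
Igfbp6: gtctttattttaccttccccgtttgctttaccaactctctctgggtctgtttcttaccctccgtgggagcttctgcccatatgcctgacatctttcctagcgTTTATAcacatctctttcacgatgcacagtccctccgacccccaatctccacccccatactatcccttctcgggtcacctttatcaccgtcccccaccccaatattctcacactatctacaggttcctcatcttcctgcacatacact

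Igf2r has 3 GGGCGG, Igf2 and Igf1r have 2 each, and Igfbp6 has none, but it has 1 TATAAA, read on the opposite strand. Over 32851 promoter windows of the same length, 32.7% held GGGCGG and 12.4% TATAAA. CG dinucleotides numbered 42 for Igf1r, 27 for Igf2r, 7 for Igfbp6 and 6 for this start of Igf2, beside a median of 6 over all windows.

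Genes around this core were described from 10 lists of 79 genes, of which 78 had a probe and 73 passed the low-signal filter by their brightest probe. Of these 73, 15 (20.5%) were called, 6 higher and 9 lower in fetal cells, beside 11.1% of all tested probes (5.92% higher and 5.18% lower), and the median difference of the 73 was −0.08. The count was 7 without fetal replicate 1 and 8 without fetal replicate 2, fetal replicate 3 or basal replicate 3. Among proteases that cleave binding proteins and the inhibitors of those proteases, 3 of 6 were called, all lower in fetal cells. Pappa, the protease of IGFBP4, read 5.91, 5.88 and 5.79 in fetal and 9.66, 9.79 and 9.65 in basal cells, a difference of −3.84 (Holm-adjusted p = 2.6e-05). Stc2, whose product stanniocalcin-2 inhibits this protease, differed by −4.36 (adjusted p = 3.7e-05), and Htra1, a secreted serine protease, by −3.67 (adjusted p = 0.0015). Stc1, the gene of the related inhibitor stanniocalcin-1, went the other way without being called, at 2.16 (adjusted p = 1), with 1 of 3 basal arrays well above background.

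Of the other binding proteins Igfbp7, whose product binds IGFs only weakly, read 4.26, 4.14 and 4.87 in fetal and 9.69, 10.11 and 9.72 in basal cells. The difference was −5.42 (Holm-adjusted p = 0.00059). Igfals, which stabilizes the complex of IGF and binding protein in serum, differed by 0.31 (adjusted p = 1), and no array had Igfbp1 or Igfbpl1 well above background. None of the 4 genes of the insulin family was called, beside 11.1% of all tested probes (the insulin genes Ins1 and Ins2, the insulin receptor Insr and the related receptor Insrr). The differences of their brightest probes lay between −0.44 and −0.10, with a dimmer Insr probe, A_52_P494514, at −0.79.

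Inside the cell, 1 of 9 receptor adaptors was called, the same share as the 11.1% of all tested probes. Grb10, an imprinted adaptor that inhibits signaling from the insulin and IGF1 receptors, read 10.96, 10.69 and 11.01 in fetal and 8.22, 7.75 and 7.99 in basal cells, a difference of 2.90 (Holm-adjusted p = 0.0044). Irs4, an insulin receptor substrate, had a brighter probe with a difference of −0.08 and a dimmer one, A_52_P57205, that was called: no basal array had it well above background, and it was at least 4.88-fold higher in fetal cells (adjusted p = 0.0046), a bound set from the lowest signals well above background on the basal arrays. Of the genes of the PI3K, AKT and FOXO steps 3 of 13 were called, among them Pik3r3, a regulatory subunit of PI3K, at 4.81 (adjusted p = 0.0042) and Pik3ca, a catalytic subunit of PI3K, at −1.37 (0.040). Of 8 genes of the TSC and mTOR steps 1 (12.5%, near the 11.1% of all probes) was called, Eif4ebp1, a repressor of translation that mTOR inhibits, at −2.75 (adjusted p = 0.00035).

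Of the growth hormone axis 1 gene of 5 was called, beside 11.1% of all probes, the transcription factor Stat5a, at −1.73 (Holm-adjusted p = 0.047). Ghr at 1.01 and Socs2 at 1.30 went the other way and were called with Benjamini-Hochberg adjustment only, beside 16% of all tested probes higher in fetal cells. The prolactin receptor gene Prlr differed by −0.35 by its brighter probe and by 1.85 (adjusted p = 0.026) by a dimmer one, A_66_P139387. Of 9 genes that regulate Igf2 or H19 or bind their RNA, 4 were called, all higher in fetal cells, beside 5.92% of all tested probes. The study had already reported Igf2bp1 and Igf2bp3 as higher in fetal cells on these arrays, so this count was partly known when the list was made. Plagl1, an imprinted zinc finger factor, differed by 2.52 (adjusted p = 0.0098) and by 2.39 in a dimmer probe, while its remaining probes differed by 0.33 and 0.14 and were not called. Igf2bp2 was at 4.43 (adjusted p = 4.8e-05), Igf2bp3 read 10.16, 9.99 and 10.12 in fetal and 3.89, 1.72 and 1.74 in basal cells (0.033), of which only 1 of 3 basal arrays was well above background, and Igf2bp1 was at least 53.7-fold higher in fetal cells (0.0013), as no basal array had it well above background. The Igf2bp genes code for proteins that bind Igf2 mRNA, and unlike the others Igf2bp2 was well above background on all basal arrays.

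Among the 10 neighbours of Igf2 and H19 with a tested probe 1 (10%, near the 11.1% of all probes) was called, Ascl2, a transcription factor, which was lower in fetal cells at −1.82 (Holm-adjusted p = 0.018). The others lay between −0.92 and 0.58, with a median over all 10 of 0.04. None of 7 neighbours of Igf2r was called by its brightest probe. Airn, the noncoding RNA that runs antisense across the Igf2r promoter on the paternal chromosome, differed by −0.02 in its brightest probe, while probe A_51_P418809 had means of 8.00 in fetal and 5.45 in basal cells (SD 0.15 and 0.10, n = 3 each) and was called at 2.56 (adjusted p = 0.0016). The RNAs of Airn and Igf2r overlap on opposite strands. No array had Slc22a3 well above background.

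**Figure D3:**
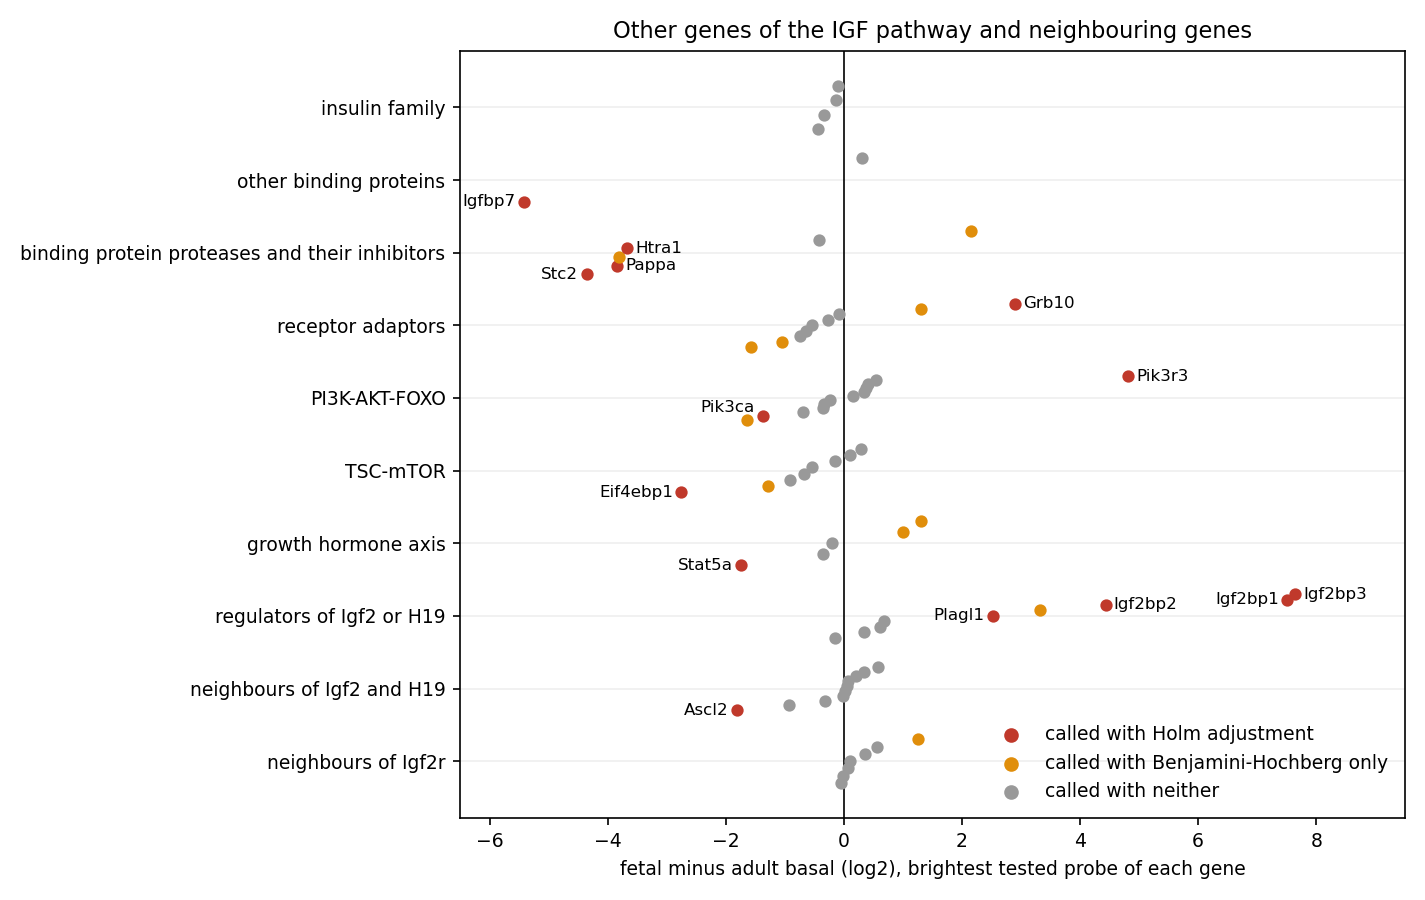
Difference between fetal and adult basal cells (log2, horizontal axis) for the brightest tested probe of each of 72 genes, 1 point per gene, in 10 lists, with Igf2bp1 and Igf2bp3, whose basal signals were at or near background, at their fitted values. Red, named genes were called with Holm adjustment (14 of those plotted); orange genes were called with Benjamini-Hochberg adjustment only and gray genes with neither.

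Marker genes of the sorted cells and of other cell types moved with the populations as well. In bulk RNA, fewer cells of a type and less RNA per cell cannot be told apart. Of the sort antigens Epcam differed by 1.88 (Holm-adjusted p = 0.026), Itga6, which encodes CD49f, by 0.01, Pecam1 (CD31) by −0.14 and Ptprc (CD45) by −0.31, and no array had Enpep (BP-1) well above background. Of 7 basal markers 5 were called lower in fetal cells, beside 5.18% of all tested probes, with a summed linear signal of 65385, 57723 and 52042 in fetal and 818586, 756887 and 747239 in basal cells and Acta2 as the brightest. Trp63 was counted as not called by its brightest probe (−0.08), but a dimmer one, A_51_P216550, was called at −3.06 (Holm-adjusted p = 0.00019). Krt14 differed by −1.20 and was not called. Of 7 luminal markers 2 were called, both higher in fetal cells (Elf5 at 7.55 and Kit at 4.0), beside 5.92% of all tested probes, and the brightest was Krt18. Krt19, another marker of this list, differed by −1.22 (adjusted p = 1), and the sum of the list was 175447, 177163 and 138311 in fetal and 117630, 109077 and 110292 in basal cells. None of these markers was below background on all arrays. The higher basal signals of Igf1r and the binding proteins went with the higher basal markers, and the part of basal cell number in them was not tested.

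The fibroblast list summed to 6320, 6517 and 7998 on the fetal and 18174, 22294 and 28949 on the basal arrays, 3.33-fold more in basal cells. Its brightest gene was Col1a2, and 2 of 10 tested genes were called, beside 5.18% of all probes in this direction: Dcn at −3.78 and Pdgfrb at −4.34. With Benjamini-Hochberg adjustment 5 of the 10 were called lower in fetal cells, beside 14% of all tested probes. Every gene of the list had a lower fetal mean, with Twist2 at −2.20, Thy1 at −1.62, Pdgfra at −0.37 and Col1a1 at −0.01. None of its 11 markers was below background on all arrays. Basal replicate 3 was highest in this sum and in Igfbp4 and Igfbp6, and basal replicate 1 lowest in all of them. Igfbp3 was instead lowest in basal replicate 3, Igfbp5 highest in replicate 1 and Igfbp2 highest in replicate 2. Both sorts selected cells with EpCAM, which stromal cells lack by the study's gating, and the adult sort also removed BP-1+ stromal cells. The part of any fibroblast RNA in the binding protein values was not tested.

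Erythroid markers summed to 620, 1725 and 1491 in fetal and 465, 1008 and 473 in basal cells, with Hba-a1 the brightest. By its fetal mean Hbb-bt was at least 20.4-fold higher in fetal cells without being called (Holm-adjusted p = 1). Its fetal arrays read 6.33, 9.28 and 9.29, so the bound is lower for replicate 1 alone. Epidermis markers summed to 2100, 1732 and 1624 in fetal and 714, 748 and 738 in basal cells, 2.48-fold more in fetal cells, with Krt10 the brightest and called at 1.47 (adjusted p = 0.022). Among the fetal arrays replicate 1 was the highest and replicate 3 the lowest in Igf2, in H19 probe A_55_P1961127 and in the epidermis sum, while replicate 1 was the lowest in the erythroid sum. The order of the epidermis sum was not particular to it, as the basal marker sum, Igf2r, Igfbp5 and Igfbp6 had the same one. The sum of the skeletal muscle list was higher in basal cells, and 98.2% of it was Acta1. Of its 3 tested genes 1 was called lower in fetal cells, Acta1 at −4.68, beside 5.18% of all tested probes. Myh8 was called with Benjamini-Hochberg adjustment only (−1.12), and the factor Myog differed by −0.17. Des, at least 2.31-fold higher in basal cells, and Myh3 did not pass the low-signal filter. Myh3 went the other way, at 0.51 by its brighter probe and at least 1.96-fold by a dimmer one. Endothelial and leukocyte sums differed by 1.05-fold each with the higher mean in basal cells, but Kdr was 93.8% of the first and Csf1r 65.3% of the other. Of the remaining endothelial markers Cdh5 differed by −2.70, Emcn by −1.79 and Pecam1 by −0.14, and the leukocyte marker Lyz2 differed by −1.76. Tek, which no fetal array had well above background, was at least 1.75-fold higher in basal cells and did not pass the low-signal filter. No gene of either list was called with Holm adjustment, and 2 of 4 tested endothelial genes and 1 of 5 leukocyte genes were called lower in fetal cells with Benjamini-Hochberg adjustment, beside 14% of all tested probes. Adipocyte markers, with Fabp4 the brightest, summed to 1126, 947 and 2964 in fetal and 2047, 1904 and 2374 in basal cells. Fetal replicate 3 stood apart from the other fetal arrays in this sum and in Adipoq (8.17, against 5.62 and 3.99). The part of these cell types in the IGF values was not tested.

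**Figure D4:**
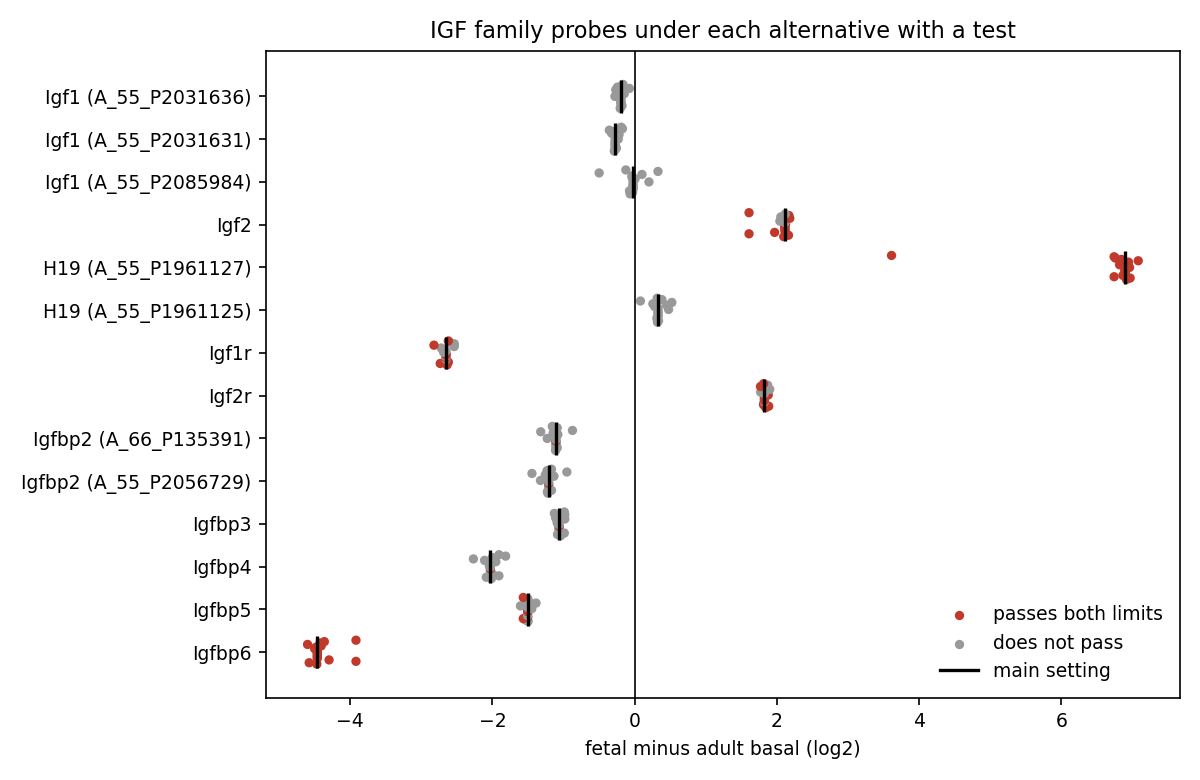
Difference between fetal and adult basal cells (log2, horizontal axis) for the 14 tested probes under each alternative setting that has a test, 1 point per alternative, red where it passes both limits and gray where it does not, with a black line at the main value. All points of Igf2, Igf2r, Igf1r and Igfbp6 stay on one side of 0, and the point of H19 probe A_55_P1961127 at 3.61 is the mean of both H19 probes.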

How the data were processed

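The authors' methods name Feature Extraction for the scans and GeneSpring 12.0 for quantile normalization. 2 kinds of values were deposited: spot intensity from the scanner (version 11.0.1.1, background subtracted, not normalized between arrays) and a table of log2 values normalized by the authors. Here log2 processed intensity was used without control and outlier spots, averaged by probe and quantile normalized over the 6 arrays. An array had 76.4% to 83.3% of its probes well above background and 0 saturated spots, and the number of arrays limits the precision. The labels name a low-input Quick Amp labeling kit and the methods a whole-transcript exon version of it.

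Accessions were matched without versions to RefSeq genes of GRCm38.p6 (27235 of 55681 probes, 20660 genes). The 2 H19 probes were added. Probes in the lowest of 3 k-means clusters in both populations were removed, and limma 3.58.1 (lmFit and eBayes, R 4.3.3) was run on the other 20450. The limit of the lowest cluster lay near log2 5.95 and applied to the log2 of each population's mean linear signal. Adipoq passed by fetal replicate 3 (8.17), although the means of its log2 values were 5.92 in fetal and 3.64 in basal cells. Tables were made in Python 3.11.15 with pandas 2.3.3, numpy 2.4.6 and matplotlib 3.10.9. The fit was tested on simulated data.

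The genes and lists were chosen with earlier results of these data known. Named were all 10 IGF genes, called genes of the lists, the brightest and undetected markers and the sort antigens; others were chosen after their values were seen. The main probe of a gene is its brightest. Alternatives were other normalizations, background corrections, filters, adjustments and variance models, blocks for slide and replicate number, the mean of a gene's probes and each array left out. Normexp (offset 50) was run on the median spot signal and local background. A called gene of the pathway lists is counted but not reported here.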

Additional observations from a re-analysis of the deposited data

How the results depend on the processing

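H19 probe A_55_P1961127 and Igfbp6 kept their calls under every alternative with a test, with differences between 3.61 and 7.08 and between −4.60 and −3.92, and Igf2, Igf1r and Igf2r kept their directions. Without the low-signal filter, 1183 probes were called in all, 3 of the IGF probes and 9 of the pathway genes, and the adjusted p of Igf1r rose to 0.19 and of Igf2r to 0.094. With all non-control probes tested the adjusted p of Igf1r was 0.056. Benjamini-Hochberg adjustment gave 6134 in all, 10 IGF probes and 26 pathway genes. With 1 array left out the counts were between 951 and 2015 of all probes (main 2271), between 2 and 4 of the IGF probes (main 5) and between 7 and 12 of the pathway genes (main 15). The replicate numbers shared by the populations did not pair the arrays: deviations of same-numbered arrays correlated at −0.03, 0.09 and 0.05, and not every array correlated best with its own number. With a replicate block 1303 probes were called in all and 2 of the IGF probes, H19 and Igfbp6, with adjusted p of 0.11 for Igf2, 0.12 for Igf1r and 0.22 for Igf2r. Igf1 probe A_55_P2085984 changed sign with slide as a block (0.20) and with an array left out (between −0.50 and 0.33, with positive values without fetal replicate 1, basal replicate 1 or basal replicate 3, at 0.0056, 0.10 and 0.33). Igfbp5 was called after normexp (adjusted p = 0.024), with an offset of 16 before log2 (0.037) and with normexp on the probes of the main filter (0.037), an alternative chosen after seeing the data. The causes were not tested. No scaling moved the median difference of all probes by more than 0.1, but each scaling itself brings the arrays to a common level, so a small shift was largely set in advance. Igf1 probe A_55_P2085974, near background on 5 of 6 arrays, was removed by the low-signal filter of the main test, whereas both H19 probes were well above background on all 6.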
